A study of Mus musculus with 18 samples.

Results

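Mutant bulge hair follicle stem cells (HF-SC GFP) were compared with mutant basal keratinocytes (b-KC GFP) sorted from the same ear skin of 3 mice with psoriasis-like disease, which gave 6 of the 18 RNA-seq libraries of the series. The libraries were chosen by their labels, and each HF-SC library was paired with the b-KC library of the same mouse number (814, 815 or 817). The mice were DKO*-mT/mG animals, in which JunB and c-Jun were floxed (JunB f/f c-Jun f/f), Cre was tamoxifen-inducible and driven by the K5 promoter (K5-Cre-ERT), and the mT/mG reporter switched a cell from Tomato to GFP once Cre had acted. They were induced at 8 weeks of age with 4 daily injections of 2 mg tamoxifen, and the skin was taken at day 7. Unrecombined Tomato cells of both kinds from the same 3 mice (HF-SC Tom, b-KC Tom) and both kinds of cells from 3 control mice (HF-SC Co, b-KC Co; mice 810, 825 and 828), which carried K5-Cre and mT/mG and in which c-Jun and JunB were wild-type or heterozygous, served for comparison. Per the paper, control mice were also 8 weeks old and were given the same 4 injections, and males and females were used. The labels of the control libraries name no GFP or Tomato gate, so GFP and Co may also differ in how the cells were gated. Cells without the leukocyte antigen CD45 and with high CD49f were sorted as HF-SCs when positive and as b-KCs when negative for CD34, so the b-KC gate can also hold basal cells of the upper follicle and the sebaceous gland.

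The bulge is the niche of slow-cycling hair follicle stem cells, which are held at rest by BMP signalling and by transcription factors such as LHX2, SOX9, TCF7L1 and NFATC1. Basal keratinocytes of the interfollicular epidermis divide more often and feed the layers above them, in which keratin 1 and keratin 10 replace the basal keratins. After wounding, bulge cells can leave the niche and take on epidermal features. Which genes still told the compartments apart in diseased skin is the question of this comparison.

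Expression is given as FPKM, which is corrected for transcript length and library size, always in the order of mice 814, 815 and 817 (for Co, 810, 825 and 828). The read depth implied by the smallest FPKM steps was 19615000 to 23645000 reads in the 6 GFP libraries, and the 3 reads that serve as a detection floor were worth 0.127 to 0.153 FPKM on a transcript of 1 kb. Differences are HF-SC minus b-KC on the log2(FPKM + 1) scale, a scale that understates the difference of genes with low FPKM. They are given with the standard errors (SE) of the limma fit. Each SE pools the spread of all 6 groups of 3 mice and is the same for GFP, Co and Tom, so it is not the spread between the 3 GFP mice. From 23951 genes, limma was run on the 12751 that reached 1 FPKM in 3 or more of the 18 libraries. A gene passed at a Benjamini-Hochberg adjusted p below 0.01 and was called when its log2 difference was also at least 2 in size.

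Genes used in the sort and the floxed genes were read first, as checks of the labels. Cd34 was at 161, 206 and 228 FPKM in HF-SC GFP and at 2.43, 2.24 and 0.382 FPKM in b-KC GFP, and Ptprc, which encodes CD45, did not go above 0.946 FPKM in any GFP library. Itga6 (CD49f) was at 117, 130.4 and 168 FPKM in HF-SC GFP and at 81.7, 77.6 and 125 FPKM in b-KC GFP, a difference that did not pass without the mouse block (adjusted p = 0.111), without mouse 814 (adjusted p = 0.018) or without mouse 815 (adjusted p = 0.13). Jun was at 69.6, 88.4 and 30.4 FPKM in HF-SC GFP and at 53.9, 65.4 and 29.6 FPKM in b-KC GFP, against 835, 1028 and 1086 FPKM in HF-SC Co and 876, 979.7 and 1000 FPKM in b-KC Co. Junb was at 71.3, 77.5 and 38.6 FPKM in HF-SC GFP and at 69.4, 72.2 and 37.2 FPKM in b-KC GFP, against 463, 436 and 443 FPKM in HF-SC Co and 737, 772 and 739.7 FPKM in b-KC Co. In the unrecombined cells Jun was at 308, 332 and 614 FPKM in HF-SC Tom and 163, 229 and 400.4 FPKM in b-KC Tom, and Junb at 251, 278 and 402 FPKM and 208, 362 and 397 FPKM. Both genes were below every Tom and every control library in all 6 GFP libraries, while each Tom library was also below the control libraries of its compartment. A difference between the mutant compartments was not shown (Jun 0.28 ± 0.42, adjusted p = 0.601; Junb 0.06 ± 0.31, adjusted p = 0.878). FPKM of exactly 0 was listed in b-KC GFP of mouse 817 for Krt14, a gene at 7002 and 6838 FPKM in the other two mice, and this value is named as a failed estimate and not as a change.

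At the fold limit of the calls, most genes that told the mutant compartments apart were higher in the bulge. In all, 145 genes were called higher in HF-SC GFP (1.14% of genes tested) and 15 were called higher in b-KC GFP (0.118%), while with a log2 limit of 1 these counts were 796 and 717. Without the fold limit, 2222 genes were higher in HF-SC GFP (17.4%) and 2680 were higher in b-KC GFP (21%), and this split turned to 2704 and 2060 when the libraries were rescaled to a common median, which moved the median difference of all genes by 0.1. Without mouse 815, 622 and 358 genes passed, whereas 135 genes were called higher in HF-SC GFP and 5 higher in b-KC GFP.

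Among genes called higher in HF-SC GFP whose libraries did not overlap, the 10 with the largest differences were Angptl7, Cd34, Col8a2, Myoc, Lgr5, Il31ra, Ltbp2, Shisa2, Tgm5 and Mmp13. Cd34 was used in the sort, so its place here is no finding. The lack of overlap was a condition of this choice, and 24.6% of all genes tested had every HF-SC GFP library above every b-KC GFP library. Angptl7, a secreted angiopoietin-like protein, was at 214, 251 and 408 FPKM in HF-SC GFP and at 1.64, 2.57 and 1.73 FPKM in b-KC GFP, a 147-fold difference of the means (log2 difference 6.57 ± 0.26, adjusted p = 1.28e-08). Lgr5, a receptor for R-spondins that marks hair follicle stem cells, was at 33.8, 50.6 and 66.6 FPKM against 1.35, 1.57 and 0.879 FPKM (4.46 ± 0.28, adjusted p = 2.68e-07). In HF-SC GFP both genes were lowest in mouse 814 and highest in mouse 817. Col8a2, a collagen chain, was at 56.4, 125 and 179 FPKM against 2.38, 2.71 and 2.38 FPKM (4.97 ± 0.34), and Myoc, the secreted myocilin, at 31.4, 41.1 and 40 FPKM against 0.17, 0.648 and 0.294 FPKM (4.82 ± 0.22). Il31ra, a receptor subunit for the itch cytokine IL-31, was at 18.7, 28.3 and 29.7 FPKM against 0.4, 0.381 and 0.257 FPKM, 73.9-fold apart in the means, but the HF-SC level was below that of HF-SC Co at 115, 107 and 106 FPKM. The differences of Shisa2, an antagonist of Wnt and FGF receptors, and of Tgm5, a transglutaminase, were 4.11 ± 0.22 and 4.09 ± 0.44.

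Most bulge transcription factors were higher in HF-SC GFP. Of 20 listed factors 18 were tested, 14 of them were higher in HF-SC GFP (77.8%, against 17.4% of all genes tested) and 1 was lower, and their median log2 difference was 1.58 in GFP and 1.68 in Co, against −0.02 and −0.06 over all genes tested. The GFP difference was below the Co difference for 12 of the 18. The test of this change passed for 0 of them (limma), and at an unadjusted p below 0.05 the GFP difference was lower for 5 and higher for 2. The 20 factors summed to 479 to 695 FPKM in HF-SC GFP and to 1139 to 1457 FPKM in HF-SC Co, and the b-KC sums were 177 to 267 FPKM in GFP and 354 to 389 FPKM in Co. Lhx2 (chromosome 2, 38194801 to 38225253, NCBIM37), which keeps stem cells in the bulge, was at 32.3, 47.9 and 35.9 FPKM in HF-SC GFP and at 2.86, 3.68 and 1.31 FPKM in b-KC GFP. Every HF-SC GFP library was several times above every b-KC GFP library (log2 difference 3.50 ± 0.22, adjusted p = 2.68e-07), although HF-SC Co stood higher still, at 165, 102 and 109 FPKM. The GFP difference minus the Co difference was −1.14, which missed the threshold (adjusted p = 0.0199).

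The next largest differences in this list were those of Tbx1, Id2, Tcf7l1 and Eya2. Tbx1, a regulator of bulge cell self-renewal, was at 41.4, 76.1 and 63.2 FPKM in HF-SC GFP and at 6.41, 6.62 and 5.63 FPKM in b-KC GFP (3.04 ± 0.20). Id2, an inhibitor of differentiation that responds to BMP, was at 128, 152 and 231 FPKM against 18.9, 31.3 and 33.6 FPKM (2.57 ± 0.20). Tcf7l1, a repressor of Wnt targets in resting stem cells, was low in both compartments and did not overlap, at 4.79, 6.9 and 6.28 FPKM against 0.649, 0.762 and 0.364 FPKM (2.13 ± 0.14). Eya2, a transcriptional coactivator, was at 14.6, 13.7 and 12.5 FPKM against 4.25, 3.41 and 0.765 FPKM (2.08 ± 0.30). Sox9, Nfatc1 and Foxc1, named here after their values were seen because of their known part in stem cell rest, differed by 2.07 ± 0.28, 1.56 ± 0.16 and 1.24 ± 0.18. Sox21 was the 1 member higher in b-KC GFP, and Nfix, Barx2 and Zfp36l2 did not pass.

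**Figure D1:**
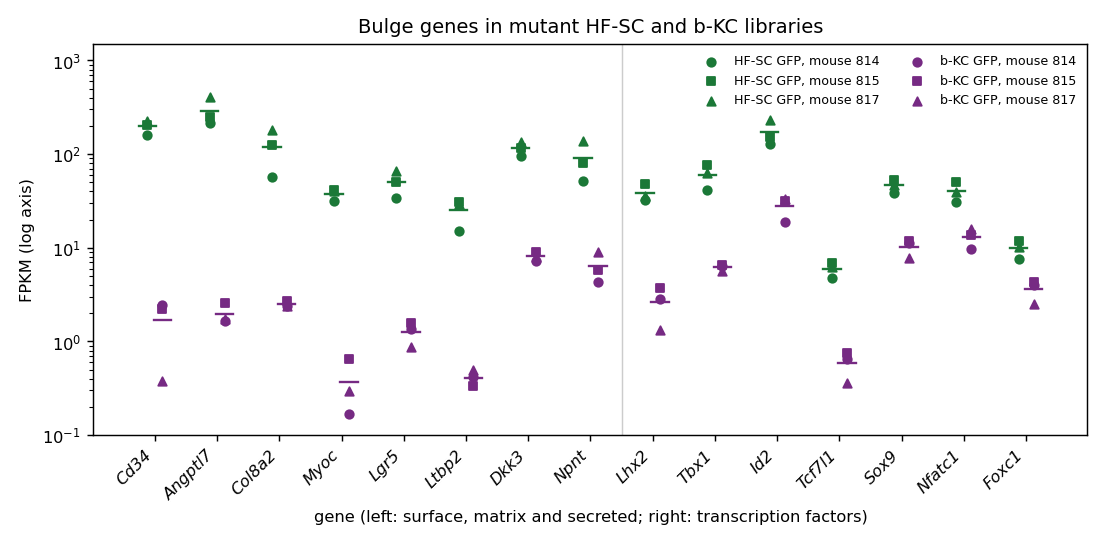
FPKM (log axis) of 15 bulge genes in the 3 HF-SC GFP libraries (green) and the 3 b-KC GFP libraries (purple), with mice shown by symbol and group means by bars. For each gene all HF-SC GFP points lie above all b-KC GFP points, from 147-fold for the means of Angptl7 to 2.73-fold for Foxc1. Cd34 was used in the sort.

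All 28 surface, matrix and secreted bulge markers were tested, and 24 were higher in HF-SC GFP (85.7%, against 17.4% of all genes tested) and 2, Slc1a3 and Gpr37, were lower (7.1%, against 21%), with a median difference of 2.28 against 2.92 in Co. Cd34 is among the 24, and as a gene of the sort its difference is no finding. Of those 2, 1 passed without the mouse block or without mouse 814 and 0 without mouse 815. Dkk3, a member of the Dickkopf family of secreted Wnt modulators, was at 96.3, 117 and 136 FPKM in HF-SC GFP and at 7.29, 9.07 and 7.92 FPKM in b-KC GFP (3.68 ± 0.18), and Ltbp2, of the latent TGF-beta binding protein family, at 15.2, 31 and 29.6 FPKM against 0.413, 0.333 and 0.491 FPKM (4.16 ± 0.22). The compartments did not overlap for Dkk3, and for Ltbp2 this was a condition of its choice above. Compared with Co, the difference was smaller for 5 of the 28 and larger for 1, where the GFP difference was below the Co difference for 3.54% of all genes tested and above it for 6.47%. The 5 included Cd34 itself (GFP minus Co −1.93 ± 0.42, adjusted p = 0.00698) and the BMP antagonist Grem1, which was at 6.86, 11.6 and 8.42 FPKM in HF-SC GFP against 99.8, 93.2 and 86.6 FPKM in HF-SC Co (GFP minus Co −2.79 ± 0.20, adjusted p = 1.88e-05). The 1 larger difference was that of Timp3, an inhibitor of metalloproteinases, at 37.1, 53 and 52.6 FPKM against 7.53, 9.49 and 14.8 FPKM in GFP (2.09 ± 0.21), where HF-SC Co was at 48.2, 60.0 and 39.6 FPKM and b-KC Co at 40.2, 47.1 and 42.5 FPKM. Krt15, the classical bulge keratin, was at 3163, 4004 and 5405 FPKM in HF-SC GFP and at 496, 513 and 1137 FPKM in b-KC GFP. With a listed 0 in HF-SC Co of mouse 828 in the fit, its difference of 2.63 ± 1.82 did not pass (adjusted p = 0.24), and it passed with such zeros as missing (adjusted p = 2.3e-05).

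To ask which identity genes were kept, the genes called between HF-SC Co and b-KC Co were followed in the GFP libraries, which come from other mice. These genes were chosen for large differences in Co, so differences in Co tend to be overestimated. Of 363 genes called higher in HF-SC Co (2.85% of genes tested), 120 (33.1%, against 1.14% of all genes tested) were called in the same direction in GFP. In that direction 313 (86.2%, against 17.4% of all genes tested) passed, and 360 had the same sign. In Tom, 191 (52.6%) were called, where 3.89% of all genes tested were called in that direction, and 343 (94.5%) passed, where 20.2% of all genes did. Their median difference was 2.64 in Co, 2.08 in Tom and 1.63 in GFP. The difference itself was smaller in GFP than in Co for 148 of the 363 (40.8%, with 3.54% of all genes tested passing in that direction). Over all genes, the GFP difference was called higher than the Co difference for 122 (0.957%) and lower for 45 (0.353%). Of the 145 genes called higher in HF-SC GFP, 120 were such identity genes, 24 were not called in Co and 1, Mmp3, was called in the opposite direction. Cd34, a gene of the sort, is among the 120.

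On the b-KC side, 5 of 366 genes called higher in b-KC Co (2.87% of genes tested) were called in GFP (1.4%, against 0.118% of all genes tested). In the same direction 208 (56.8%, against 21% of all genes tested) passed, and 157 did not pass. In Tom, 3 (0.8%) were called, against 0.0471% of all genes tested, and 251 (68.6%) passed, against 23%. The median difference was −2.43 in Co, −1.0 in Tom and −0.78 in GFP, and for 296 of the 366 (80.9%) the difference was smaller in GFP than in Co (6.47% of all genes tested passed in that direction). The 5 called genes were Aldh3a1, an aldehyde dehydrogenase, Gsta3, a glutathione transferase, Hist1h2ae, a histone gene of a family with near-identical copies, Oas1f, of the oligoadenylate synthetase family, and Thy1, a surface glycoprotein. Aldh3a1 was at 49.9, 46.1 and 30.7 FPKM in HF-SC GFP and at 168, 192 and 154 FPKM in b-KC GFP (−2.02 ± 0.18, adjusted p = 5.03e-06), and Oas1f at 26.4, 25.3 and 25.6 FPKM against 94.9, 109 and 115 FPKM (−2.0 ± 0.14, adjusted p = 9.52e-07). Neither gene overlapped between the compartments. The count of 5 was 0 after rescaling of the libraries and 8, 2 and 3 without mouse 814, 815 and 817. With a log2 limit of 1 for both the set and the call, 281 of 1382 (20.3%) were called on the b-KC side and 574 of 1309 (43.9%) on the HF-SC side.

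**Figure D2:**
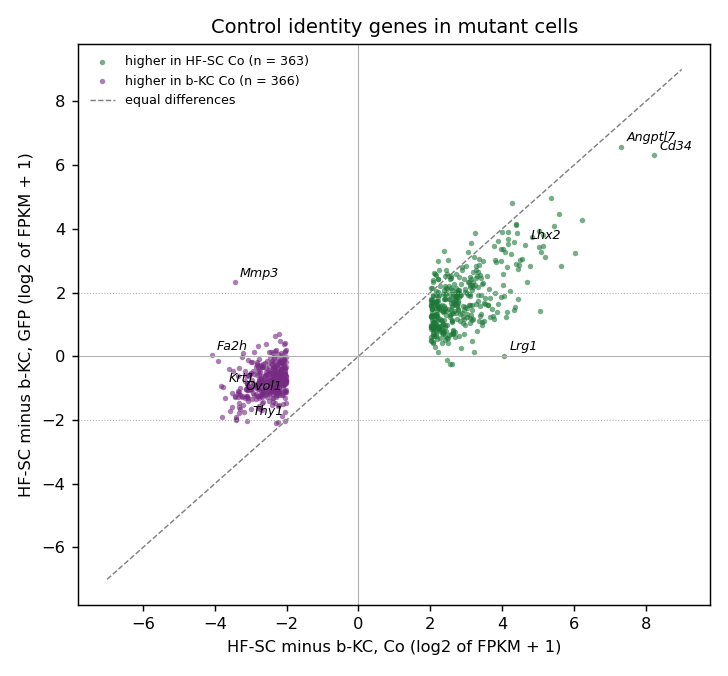
Difference between HF-SC and b-KC on the log2(FPKM + 1) scale in Co (x axis) and in GFP (y axis) for the 363 genes called higher in HF-SC Co (green) and the 366 called higher in b-KC Co (purple), with a dashed line of equal differences and dotted lines at a size of 2. Green points have a median of 1.63 in GFP and purple points a median of −0.78, with Mmp3 the only purple point above the upper dotted line.

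The median levels of both sets were read in each compartment. The median level of the b-KC identity genes was 4.97 in b-KC Co and 4.69 in b-KC GFP on the log2(FPKM + 1) scale, but 2.41 in HF-SC Co, 3.58 in HF-SC Tom and 3.88 in HF-SC GFP. The HF-SC identity genes were at 4.09 in HF-SC Co, 3.39 in HF-SC Tom and 2.85 in HF-SC GFP, and in b-KC at 1.07 (Co), 0.64 (Tom) and 0.93 (GFP). Between Co and GFP both medians moved more in the HF-SC libraries than in the b-KC libraries, while the median level of all genes tested stayed between 3.40 and 3.50 in all 6 groups. At 1.07 in b-KC Co, the HF-SC identity genes had little room to fall there, so for this set the levels cannot show that b-KC changed less. Endothelial genes of HF-SC Co, given below, are among this set, and their part and that of the reporter gate were not tested. In these bulk libraries, fewer cells of a type and less RNA per cell cannot be told apart.

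**Figure D3:**
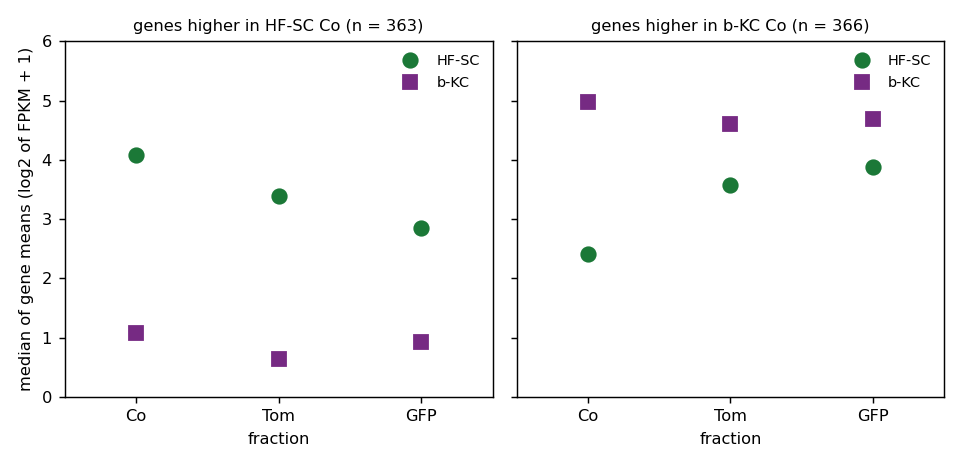
Median of gene means on the log2(FPKM + 1) scale in the Co, Tom and GFP fractions for HF-SC (circles) and b-KC (squares), for genes called higher in HF-SC Co (left) and in b-KC Co (right). The b-KC identity genes were at 2.41 in HF-SC Co and at 3.88 in HF-SC GFP, while the b-KC squares stayed between 4.60 and 4.97.

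The Tom libraries of the same mice were compared gene by gene. For 55 of the 363 HF-SC identity genes the difference was smaller in GFP than in Tom and for 1 it was larger, and among the 366 b-KC identity genes 1 was higher and 1 lower. Over all genes, 224 differences were called lower in GFP than in Tom (1.76%), and 0 were called higher by limma, with 5 higher ones (0.0392%) and 382 lower ones (3%) passing without the fold limit. The HF-SC Tom libraries held endothelial transcripts at high levels, such as Plvap, of the endothelial diaphragm, at 523, 505 and 222 FPKM against 7, 12 and 0.167 FPKM in HF-SC GFP. The part of endothelial cells in those 224 differences was not tested.

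The b-KC identity genes with the largest control differences that did not pass in GFP were Fa2h, Elovl3, Krt77, Krt1 and Acoxl, of which Fa2h and Elovl3 act in fatty acid metabolism. Krt1, the keratin of the first suprabasal layers, was at 733, 828 and 219 FPKM in HF-SC GFP and at 1002, 1148 and 884 FPKM in b-KC GFP, against 62.6, 84.9 and 66.2 FPKM in HF-SC Co and 1073, 953 and 909 FPKM in b-KC Co. Its b-KC levels were alike in mutant and control, and every HF-SC GFP library was above every HF-SC Co library (GFP minus Co 2.79 ± 0.45, adjusted p = 0.00123). Fa2h was at 11.3, 25.5 and 0.591 FPKM in HF-SC GFP and at 8.44, 10.2 and 3.6 FPKM in b-KC GFP, and Elovl3 at 21.7, 29.7 and 0.604 FPKM against 20.02, 14.6 and 3.75 FPKM. Mouse 817 was lowest in both compartments for both genes, and the sign of their differences varied with which mouse was left out (−0.58 to 0.81 for Fa2h and −0.73 to 0.54 for Elovl3).

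On the HF-SC side, the 5 largest control differences that did not pass in GFP were those of Fabp4, Ackr1, Sele, Lrg1 and Lgals1. Fabp4, Ackr1 and Sele are known from endothelium, and the HF-SC levels of Sele were 20.8, 21.9 and 12.2 FPKM in Co and 4.12, 2.7 and 0.0867 FPKM in GFP, with b-KC GFP at 0.26, 0.223 and 0.0485 FPKM. The 16 endothelial markers summed to 85.9 to 146 FPKM in HF-SC Co, to 2.70 to 46.8 FPKM in HF-SC GFP, to 2.23 to 4.00 FPKM in b-KC Co and to 2.11 to 7.85 FPKM in b-KC GFP. The part of the reporter gate, which the labels give for GFP and not for Co, was not tested. In Co 15 of the 16 passed as higher in HF-SC (21.6% of all genes tested did), and in GFP 3 did (Plvap, Selp and Pecam1), a share of 18.8% that is near the 17.4% of all genes tested. The 3 became 0 without the mouse block, without mouse 814 or without mouse 815, and 10 without mouse 817. Selp was at 4.08, 3.83 and 0.0979 FPKM in HF-SC GFP, so mouse 817 lacked what the other two held. Fabp4, Ackr1, Sele and Lgals1 passed as higher in HF-SC GFP without mouse 817 (2.02, 2.08, 1.81 and 1.03), and Lrg1, a secreted glycoprotein of inflammation, passed as lower (−0.93, adjusted p = 0.00286). Lrg1 itself was at 56.7, 59 and 37.8 FPKM in HF-SC GFP and at 143, 86.9 and 9.39 FPKM in b-KC GFP. Without the identity genes that lay far apart between Tom and Co, a choice made after the data were seen, 92 of 283 HF-SC identity genes (32.5%) and 4 of 208 b-KC identity genes (1.9%) were called in GFP.

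Of 23 markers of interfollicular basal cells, 6 were higher in HF-SC GFP (26.1%) and 8 were higher in b-KC GFP (34.8%), where 17.4% and 21% of all genes tested were, with a median of −0.48. Ly6d, a surface protein of epidermal keratinocytes, was at 1149, 819.9 and 822 FPKM in HF-SC GFP and at 2633, 2819.8 and 2884 FPKM in b-KC GFP (−1.60 ± 0.21), and Avpi1 differed by −1.23 ± 0.16. Cxcl14, Fst and Col17a1, which stand in that list, were higher in HF-SC GFP instead, by 3.58 ± 0.32, 2.12 ± 0.26 and 1.34 ± 0.21. The counts of 6 and 8 were 3 and 4 without the mouse block, 2 and 4 without mouse 815, and the 8 became 5 after rescaling. Col17a1 did not pass without the block (adjusted p = 0.0321) or without mouse 815 (adjusted p = 0.0176).

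Of 18 markers of the upper follicle and sebaceous gland, 3 were higher in HF-SC GFP (16.7%, against 17.4% of all genes tested) and 6 in b-KC GFP (33.3%, against 21%). Among the latter were the beta-defensin Defb6, at 359, 239.6 and 61.2 FPKM in HF-SC GFP and at 1158, 1145 and 242 FPKM in b-KC GFP (−1.97 ± 0.19), the microsomal glutathione transferase Mgst1 (−1.70 ± 0.22) and Krt79, a keratin of the upper follicle (−1.31 ± 0.35). Defb6 was lowest in mouse 817 in both compartments, so the groups overlapped while every pair went the same way. The count of 6 was 0 without the mouse block, 3 without mouse 814 and 2 without mouse 815, and adjusted p for Defb6, Mgst1 and Krt79 was 0.0519, 0.0367 and 0.0205 without the block. Krt79 also missed the threshold without mouse 814 (adjusted p = 0.013), without mouse 815 (adjusted p = 0.0491), after rescaling (adjusted p = 0.0122) and without the filter on low values (adjusted p = 0.0402).

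Of 29 tested suprabasal genes, b-KC GFP was higher for 5 (17.2%, against 21% of all genes tested) and HF-SC GFP for 1 (3.4%, against 17.4%). In Co 17 were higher in b-KC, where 24.4% of all genes were, and the median difference was 0.13 in GFP and −1.96 in Co. For 13 of the 29 the GFP difference was above the Co difference in the test of the difference itself (6.47% of all genes tested). Ovol1, a transcription factor of differentiating keratinocytes, was at 92.6, 102 and 82.9 FPKM in HF-SC GFP and at 186, 233 and 230.3 FPKM in b-KC GFP (−1.22 ± 0.19), against 19, 22.9 and 15 FPKM in HF-SC Co and 211, 199 and 169 FPKM in b-KC Co. Every HF-SC GFP library was above every HF-SC Co library. Krtdap, a secreted protein of differentiating keratinocytes, differed by −1.33 ± 0.19 and Tgm3, a transglutaminase of the cornified layer, by −1.27 ± 0.18. Krt10 differed by −1.16 ± 0.31, at 354, 587 and 398 FPKM against 719, 1014 and 1283 FPKM, with b-KC Co higher at 3418, 2579.9 and 2743 FPKM. Spink5, an inhibitor of skin proteases, was higher in HF-SC GFP (1.44 ± 0.30). The counts of 5 and 1 were 3 and 0 without the mouse block and 2 and 0 without mouse 815, while 4 genes were higher in HF-SC GFP without mouse 817. Krt10 missed the threshold without the block (adjusted p = 0.0144), after rescaling (adjusted p = 0.0144), without the filter on low values (adjusted p = 0.0382), without mouse 814 (adjusted p = 0.0197) and without mouse 815 (adjusted p = 0.0343), and without mouse 815 so did Krtdap (adjusted p = 0.0104) and Spink5 (adjusted p = 0.0203).

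Of 32 tested cell cycle genes, 17 were higher in b-KC GFP (53.1%, against 21% of all genes tested), 0 were higher in HF-SC GFP by limma, also at an unadjusted p below 0.05, and 15 did not pass. The median was −0.69 against −1.97 in Co, where 29 were higher in b-KC (24.4% of all genes were). Among the 15, Cenpe and Cenpf, genes of kinetochore proteins named after their values were seen, were at slightly higher levels in HF-SC GFP in every mouse. The difference was smaller than in Co for 20 of the 32 (6.47% of all genes tested passed in that direction). Ube2c, which takes part in the destruction of mitotic cyclins, was at 61.6, 33.4 and 35.9 FPKM in HF-SC GFP and at 126, 119.8 and 73.8 FPKM in b-KC GFP (−1.28 ± 0.22, adjusted p = 0.000561), against 5.76, 3.91 and 6.08 FPKM in HF-SC Co and 58.7, 49.3 and 47.4 FPKM in b-KC Co. Every library of both mutant compartments was above every control library of the same compartment. Birc5 (−1.25 ± 0.23), Cdc20 (−1.19 ± 0.20), Mcm5 (−1.12 ± 0.19) and Cdk1 (−1.11 ± 0.20), genes of mitosis and DNA replication, were next in size. Without mouse 815, 0 of the 17 passed, with differences of −1.02, −1.10, −1.15, −1.13 and −0.97 for Ube2c, Birc5, Cdc20, Mcm5 and Cdk1.

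Among 18 tested regulators of the entry into the cycle, 4 were higher in HF-SC GFP (22.2%) and 5 in b-KC GFP (27.8%), where 17.4% and 21% of all genes tested were. Cdkn1c, a Cdk inhibitor, was at 2.45, 3.38 and 6.3 FPKM in HF-SC GFP and at 0.677, 0.603 and 0.766 FPKM in b-KC GFP (1.51 ± 0.19), and Rb1, which encodes the retinoblastoma protein, differed by 0.91 ± 0.18. Higher in b-KC GFP were the inhibitors Cdkn2c (−1.21 ± 0.16) and Cdkn1a (−0.90 ± 0.20), the kinase Cdk4 (−1.06 ± 0.13) and the factors E2f1 and E2f2. Without mouse 815, 1 and 2 of these passed, and after rescaling 3 of the 5. Cdkn1a did not pass without mouse 817 either (adjusted p = 0.0184).

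In the BMP and TGF-beta list 20 of 32 tested genes were higher in HF-SC GFP (62.5%, against 17.4% of all genes tested) and 0 were lower by limma, also at an unadjusted p below 0.05 (19 and 5 in Co, where 21.6% and 24.4% of all genes tested passed), with a median of 0.94 against 1.15 in Co. Among the largest were Grem1 (3.23 ± 0.14), Ltbp2, Fstl1 (2.28 ± 0.23) and the BMP response gene Id4, which was at 31.3, 51.3 and 70.1 FPKM in HF-SC GFP and at 5.79, 8.03 and 11.5 FPKM in b-KC GFP (2.43 ± 0.13). Id4 was lowest in mouse 814 and highest in mouse 817 in both compartments, and the groups did not overlap. The GFP difference was above the Co difference for 4 of the 32 and below it for 4 (6.47% and 3.54% of all genes tested). Without mouse 815, 10 of the 20 passed.

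Of 29 tested Wnt genes, 12 were higher in HF-SC GFP (41.4%, against 17.4% of all genes tested) and 5 in b-KC GFP (17.2%, against 21%), with a median of 0.41. In Co 14 and 12 were so (21.6% and 24.4% of all genes), with a median of 0.36, and the GFP difference was above the Co difference for 7 of the 29 and below it for 2 (6.47% and 3.54% of all genes). The 12 included the receptors Fzd2 (2.96 ± 0.17), Fzd7 (2.08 ± 0.22) and Fzd3 (2.02 ± 0.15) and the secreted Wnt inhibitor Wif1, which was at 31.2, 29.3 and 36.8 FPKM against 5.89, 6.85 and 3.1 FPKM (2.46 ± 0.23). The 5 were the ligands Wnt3, Wnt4, Wnt7b and Wnt10a and the receptor Fzd10. Of these 5, 3 passed without the block, without mouse 814, without mouse 815 and after rescaling.

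Adhesion and basement membrane genes were higher in HF-SC GFP for 21 of 33 tested (63.6%, against 17.4% of all genes tested) and lower for 0 (limma, also at an unadjusted p below 0.05), with a median of 0.90 (0.65 in Co). Itga6, which encodes the CD49f used in the sort, is among the 21. Npnt, which encodes nephronectin, the bulge ligand to which the arrector pili muscle anchors, was at 51.4, 81.2 and 139 FPKM in HF-SC GFP and at 4.35, 5.8 and 9.11 FPKM in b-KC GFP (3.56 ± 0.17). The matrix protein gene Egfl6 was at 20.04, 24.6 and 19.6 FPKM against 1.59, 1.64 and 2.02 FPKM (3.02 ± 0.20). Neither gene overlapped between the compartments. The integrins Itgb8 (3.01 ± 0.25) and Itga2 (2.13 ± 0.31) and the collagen Col18a1 (1.96 ± 0.20) were next in size. The count of 21 was 11 without the mouse block and 8 without mouse 815.

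**Figure D4:**
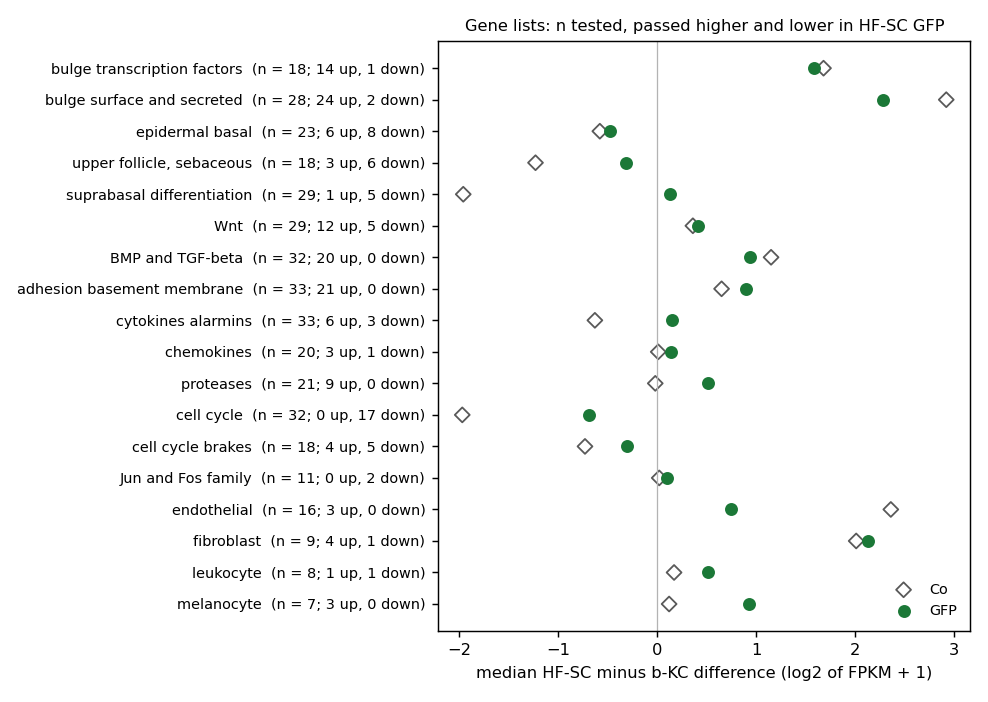
Median HF-SC minus b-KC difference on the log2(FPKM + 1) scale of each gene list in GFP (filled circles) and in Co (open diamonds), with the number of genes tested and the numbers that passed as higher (up) or lower (down) in HF-SC GFP. Bulge transcription factors lie at 1.58 in GFP and 1.68 in Co, while suprabasal and cell cycle genes lie at −1.96 and −1.97 in Co and at 0.13 and −0.69 in GFP.

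Tslp, the gene of an epithelial cytokine that acts on immune cells, had turned its direction. It was at 133, 131 and 109 FPKM in HF-SC GFP and at 55.2, 52.9 and 30.1 FPKM in b-KC GFP, and at 1.93, 1.65 and 1.81 FPKM in HF-SC Co and 7.09, 6.26 and 7.64 FPKM in b-KC Co. Every mutant library was above every control library, and the higher compartment was b-KC in Co and HF-SC in GFP (log2 difference 1.45 ± 0.27, adjusted p = 0.000781 in GFP; GFP minus Co 2.97 ± 0.38, adjusted p = 0.00032). In Tom it was at 27.8, 17.1 and 27.7 FPKM in HF-SC and at 12.9, 13.6 and 24.2 FPKM in b-KC, and the GFP difference was not shown to differ from the Tom difference (0.94 ± 0.38, adjusted p = 0.235). The GFP difference stayed below the fold limit of the calls.

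Of 33 tested cytokine and alarmin genes, 6 were higher in HF-SC GFP (Il24, Csf3, Tslp, Ptgs2, Il1a and Ereg), a share of 18.2% that is near the 17.4% of all genes tested. Lcn2, S100a9 and Ptges, 3 of the 33 (9.1%, against 21% of all genes), were higher in b-KC GFP, whereas 1 and 13 were so in Co (21.6% and 24.4% of all genes). For 11 of the 33 the GFP difference was above the Co difference (6.47% of all genes). Il24, a cytokine of the IL-20 family, was at 5.34, 6.96 and 13 FPKM in HF-SC GFP and at 1.18, 1.3 and 1.1 FPKM in b-KC GFP (2.03 ± 0.38), and no higher than 0.262 FPKM in Co. Ptgs2, which encodes the inducible cyclooxygenase COX-2, was at 43.5, 44 and 56.5 FPKM against 16.6, 17.4 and 20.5 FPKM (1.35 ± 0.21), while HF-SC Co at 11.4, 12.3 and 10.1 FPKM was below b-KC Co at 19.4, 32.5 and 24.6 FPKM. The compartments did not overlap in GFP or in Co, in opposite order. Il1a, an alarmin of keratinocytes, was at 78.7, 89.8 and 38.8 FPKM against 38.9, 40.6 and 11.6 FPKM (1.26 ± 0.29, adjusted p = 0.00323), and it missed the threshold without the mouse block (adjusted p = 0.0112), without mouse 814 (adjusted p = 0.0146), without mouse 815 (adjusted p = 0.0228) and without the filter on low values (adjusted p = 0.0214). Ereg, the growth factor epiregulin, differed by 1.21 ± 0.33 and missed it under these 4 settings (adjusted p = 0.0125, 0.0316, 0.072 and 0.0437) and with a pseudocount of 0.1 (adjusted p = 0.0149). Without mouse 815, 3 of the 6 and 0 of the 3 passed. The 3 became 1 without the block or after rescaling, 0 without mouse 814 and 5 without mouse 817.

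Of the antimicrobial genes, S100a8 was at 29379, 17977 and 13146 FPKM in HF-SC GFP and at 57584, 48183 and 13415 FPKM in b-KC GFP and did not pass (−0.81 ± 0.29, adjusted p = 0.0344), but it did without mouse 817 (adjusted p = 0.00742). S100a9, its partner in calprotectin, was at 14692, 8404 and 5545 FPKM against 37576, 27536 and 7092 FPKM (−1.14 ± 0.30, adjusted p = 0.00688), and Lcn2, which encodes the iron-siderophore carrier lipocalin 2, differed by −1.19 ± 0.21. For all 3 genes mouse 817 had the lowest values in both compartments. Neither S100a9 nor Lcn2 passed without the block (adjusted p = 0.344 and 0.107), without mouse 814 (0.0479 and 0.0116), without mouse 815 (0.105 and 0.0257) or with the mouse as a random block (0.175 and 0.0184). S100a9 did not pass either with only the compared libraries in the fit (adjusted p = 0.103), after rescaling (adjusted p = 0.0126) or without the filter on low values (adjusted p = 0.0408).

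Of 20 tested chemokine genes, Cxcl14, Cxcl12 (1.99 ± 0.21) and Ccl3 were higher in HF-SC GFP (15%, against 17.4% of all genes tested). Ccl3 was below 1 FPKM in 4 of the 6 libraries and did not pass without the block (adjusted p = 0.0305) or without mouse 814 (adjusted p = 0.0315). Ccl20, the ligand of CCR6 on T cells, was higher in b-KC GFP, at 484, 547 and 275 FPKM against 194, 193 and 145 FPKM in HF-SC GFP (−1.24 ± 0.22), but by less than in Co (GFP minus Co 1.99 ± 0.31, adjusted p = 0.000898). The Ccl20 difference did not pass without mouse 815 (−1.12, adjusted p = 0.0219).

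Of 21 tested genes of metalloproteinases, their inhibitors and related proteases 9 were higher in HF-SC GFP (42.9%, against 17.4% of all genes tested) and 0 were lower (limma, 2 at an unadjusted p below 0.05), with a median of 0.51 against −0.02 in Co. Mmp3 (stromelysin-1) was at 65, 67.3 and 141 FPKM in HF-SC GFP and at 12.4, 15.1 and 22.8 FPKM in b-KC GFP, but at 9.13, 16.7 and 8.53 FPKM in HF-SC Co and at 86.5, 197 and 127 FPKM in b-KC Co. The compartments had changed places without overlap (2.32 ± 0.32 in GFP and −3.45 in Co, GFP minus Co 5.77 ± 0.45, adjusted p = 1.93e-05). Mmp13 (collagenase-3) was at 79, 93 and 53.9 FPKM in HF-SC GFP and at 6.07, 5.48 and 1.35 FPKM in b-KC GFP, with HF-SC Co at 0.182, 0.38 and 0.199 FPKM (3.97 ± 0.50 in GFP, GFP minus Co 5.69 ± 0.71, adjusted p = 0.000283). Mmp9 (gelatinase B) was at 5.17, 18.2 and 20.7 FPKM against 0.414, 0.943 and 0.459 FPKM (3.11 ± 0.54, GFP minus Co 4.11 ± 0.77, adjusted p = 0.0029), with an adjusted p of 0.0121 for the GFP difference without mouse 815. None of the 3 GFP differences was shown to differ from that in Tom (adjusted p = 0.0404, 0.14 and 0.335 for Mmp3, Mmp13 and Mmp9). Timp2, an inhibitor of these enzymes, was at 73.3, 104 and 108 FPKM in HF-SC GFP and at 6.04, 6.12 and 4.13 FPKM in b-KC GFP (3.90 ± 0.16), with a Co difference of 4.17.

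c-Jun and JunB act as parts of the AP-1 factor, and the 250 bases before the start of Mmp3, Mmp13, Il1a and Ptgs2 were searched for the AP-1 motif TGANTCA, which reads the same on both strands. The promoters of Mmp3, Mmp13 and Il1a are shown because the motif stands there close to the start. The last 100 bases before the RefSeq start (GRCm38.p6, 5′ to 3′ on the strand of the gene, the motif in capitals) were the following.
Mmp3 (chr9:7445722-7445821, plus strand): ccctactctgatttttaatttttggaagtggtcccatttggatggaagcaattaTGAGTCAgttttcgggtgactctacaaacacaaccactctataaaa
Mmp13 (chr9:7272414-7272513, plus strand): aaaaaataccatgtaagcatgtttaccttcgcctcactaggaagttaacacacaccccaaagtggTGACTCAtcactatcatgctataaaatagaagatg
Il1a (chr2:129309973-129310072, minus strand): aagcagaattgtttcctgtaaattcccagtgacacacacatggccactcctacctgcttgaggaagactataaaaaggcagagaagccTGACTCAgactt
The motif began 46, 35 and 12 bases before the start in Mmp3, Mmp13 and Il1a. It stood in the 250 bases before the start in 6.75% of the 32851 promoters of the table, and these letters were not in that window of Ptgs2. Mmp9, Tslp and Il24 were not analysed here. The match describes the sequence only, and a comparison of shares over the called genes is void because promoters were at hand for too few of them (103 of the 145).

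**Figure D5:**
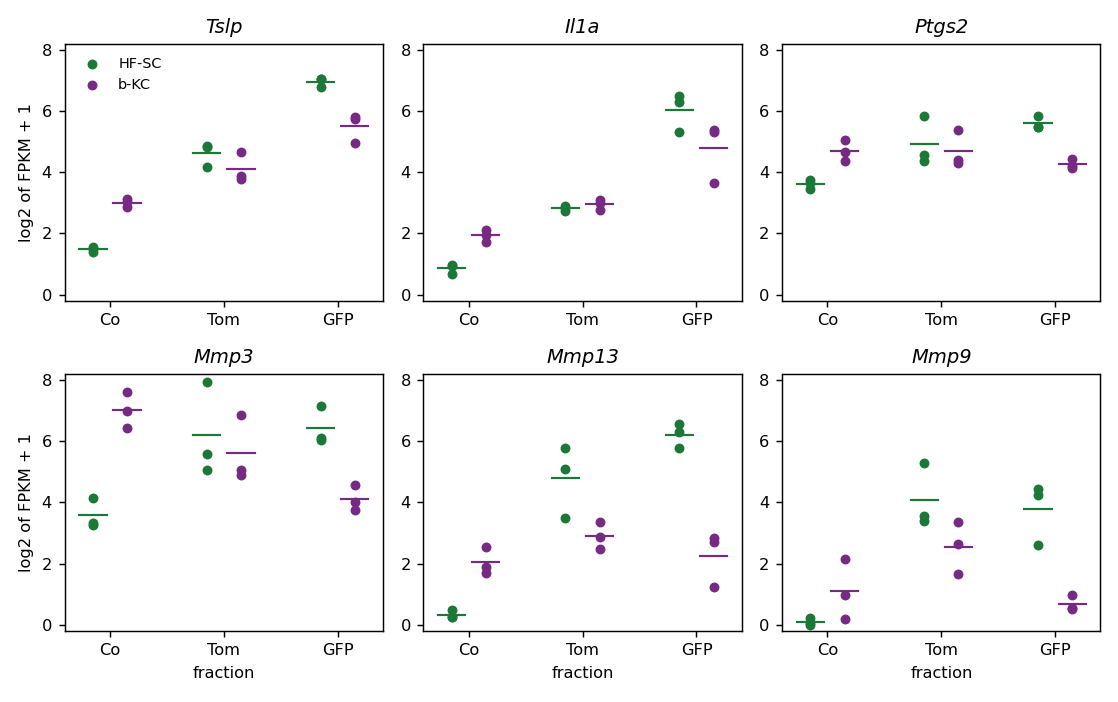
Expression on the log2(FPKM + 1) scale of 3 genes of inflammatory mediators (Tslp, Il1a, Ptgs2) and 3 metalloproteinase genes (Mmp3, Mmp13, Mmp9) in the Co, Tom and GFP fractions, with 1 point for each of 3 mice, HF-SC in green and b-KC in purple, and bars at the means. In Co the green means lie below the purple ones for all 6 genes, and in GFP they lie above, for Mmp3 by 2.32.

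Of the 15 genes called higher in b-KC GFP, 0 stood in the lists of interfollicular basal, upper follicle and sebaceous, or suprabasal genes. Among those whose libraries did not overlap, the 10 with the largest differences were Rps27, Npm3, Emd, Rab5c, Raly, Lgals7, Stk11, Rmrp, Hist1h2ae and Gsta3, and the other 5 called genes were Aldh3a1, Lars2, Mir6236, Oas1f and Thy1. The lack of overlap was a condition of the choice of the 10, and 27.9% of all genes tested had every HF-SC GFP library below every b-KC GFP library. Lgals7, which encodes the epithelial galectin-7, was at 662, 361 and 325 FPKM in HF-SC GFP and at 2737, 2607 and 1441 FPKM in b-KC GFP (−2.35 ± 0.35, adjusted p = 0.000228). Without mouse 815 Lgals7 did not pass (adjusted p = 0.0114). Rps27, a ribosomal protein gene with near-identical copies whose reads may be shared, was at 4.91, 47.7 and 4.61 FPKM against 207, 173 and 174 FPKM (−3.98 ± 0.84, adjusted p = 0.00182) and did not pass without mouse 814 (adjusted p = 0.022). Emd, which encodes the nuclear envelope protein emerin, was at 30.6, 4.38 and 4.7 FPKM against 70.4, 68.4 and 37 FPKM, with HF-SC GFP of mouse 814 several times above the other two, and HF-SC Co was at 46.3, 4.21 and 10.3 FPKM. Emd, Raly and Stk11 did not pass without the block (adjusted p = 0.0149, 0.0135 and 0.0141), without mouse 815 (adjusted p = 0.0765, 0.0673 and 0.0629), without mouse 817 (adjusted p = 0.019, 0.02 and 0.0293), after rescaling (adjusted p = 0.0109, 0.0107 and 0.011) or without the filter on low values (adjusted p = 0.0482, 0.0468 and 0.0468). Without mouse 815, Npm3 (0.0241), Rab5c (0.0611), Hist1h2ae (0.0182) and Thy1 (0.0117) also missed the threshold.

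Genes higher in b-KC GFP were also shorter, with a median longest transcript of 1902 bases among those that passed, against 4291 bases for those higher in HF-SC GFP and 3036.5 bases for all tested. In Co these medians were 2832 and 3413.5 bases. The part of transcript length or RNA quality in these differences was not tested.

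Markers of other cells were read in the same libraries. Their shares stand against 17.4% of all genes tested that passed as higher in HF-SC GFP and 21% as lower. Of 9 tested fibroblast markers, 4 were higher in HF-SC GFP (Col3a1, Col1a2, Col1a1 and Lum, 44.4%) and Thy1 was lower (11.1%), and the 12 listed summed to 39.3 to 144 FPKM against 41.6 to 44.3 FPKM. Col3a1 was at 5.64, 33.7 and 3.05 FPKM in HF-SC GFP and at 0.127, 0.251 and 0.888 FPKM in b-KC GFP (2.82 ± 0.63), with mouse 815 the highest, and 1 and 2 of the 4 passed without mouse 814 and mouse 815. Lum did not pass without the block (adjusted p = 0.0134), without mouse 814 (adjusted p = 0.0521) or without mouse 815 (adjusted p = 0.0784). Of 7 tested melanocyte markers, Mitf (1.85 ± 0.18), Dct (1.48 ± 0.24) and Tyrp1 (1.41 ± 0.38) were higher in HF-SC GFP (42.9%), at sums of 13.6 to 22.7 FPKM against 4.61 to 6.04 FPKM, and 1 of these passed without mouse 815 while 5 markers did without mouse 817. Tyrp1 did not pass without mouse 814 (adjusted p = 0.0852) or without mouse 815 (adjusted p = 0.107). Of 8 tested leukocyte markers, the myeloid gene Lyz2 (1.40 ± 0.32) was higher in HF-SC GFP, and Cd74, the invariant chain of MHC class II, was higher in b-KC GFP, at 287, 401 and 229.8 FPKM against 109.8, 144 and 123 FPKM, a share of 12.5% in each direction. The 15 leukocyte markers in the table summed to 128 to 166 FPKM in HF-SC GFP and to 242 to 413 FPKM in b-KC GFP, most of it Cd74. HF-SC GFP of mouse 817 stood apart in myeloid markers, with Lyz2 at 8.16 FPKM against 1.65 FPKM in each of the other two and Fcer1g at 9.40 FPKM against 1.09 and 1.29 FPKM. The Lyz2 difference was 0.94 without mouse 817 (adjusted p = 0.00288). Neither Lyz2 nor Cd74 passed without the block (adjusted p = 0.0205 and 0.0349) or without mouse 815 (adjusted p = 0.0177 and 0.0163), nor did Cd74 without mouse 814 (adjusted p = 0.0256). The 1 tested marker of mural or glial cells, Acta2, did not pass, and the 8 listed summed to 1.5 to 3.14 FPKM against 1.83 to 2.56 FPKM. The part of these cells in the differences above was not tested.

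Of 11 tested genes of the Jun and Fos family, 2 were higher in b-KC GFP (18.2%, against 21% of all genes tested) and 9 did not pass. None was higher in HF-SC GFP by limma, and 1 was at an unadjusted p below 0.05. Fosl1, which encodes the AP-1 subunit Fra-1, was higher in b-KC GFP, at 6.94, 10.7 and 13.7 FPKM in HF-SC GFP against 13.7, 19.9 and 23.6 FPKM in b-KC GFP (−0.82 ± 0.18). The groups overlapped while every pair went the same way, and the difference was smaller in GFP than in Co (GFP minus Co 1.5). Fosl1 did not pass without mouse 814 (adjusted p = 0.0181), without mouse 815 (adjusted p = 0.0175) or without the block (adjusted p = 0.0852).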

How the data were processed

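RNA from sorted ear skin cells was made into unstranded SMART-Seq v4 and Nextera XT libraries. The authors aligned 51-base reads to mm9 (TopHat2 2.0.10, Bowtie 1.0.0, 2 mismatches, up to 20 multihits) and deposited FPKM from Cufflinks 2.2.1 for each gene in each library. Without strand, overlapping and antisense genes cannot be separated. The depth was inferred from the steps of low values in 6644 genes with 1 annotated transcript (78.6% to 83.3% within 0.1 of a whole read in each library), and floors of 3 reads cover counting error only.

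From FPKM, log2(FPKM + 1) was fitted with limma 3.58.1 (R 4.3.3, eBayes with a trend) over all 18 libraries, with 6 group means and the mouse as a fixed block (8 residual degrees of freedom). The same mouse gave both populations per the labels, and deviations from the group means correlated at 0.63, 0.31 and 0.70 across genes within mice 814, 815 and 817 (−0.67 to 0.54 between different mice). P-values were adjusted over 12751 genes, and differences between comparisons were tested as interaction contrasts. The fit was tested on simulated data.

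Genes named were Cd34, Lhx2, Tslp, Jun and Junb, the 10 largest called differences in each direction without overlap, up to 5 members of each list with the largest difference that passed, the 5 largest control identity genes on each side that did not pass in GFP, any called in opposite directions, and the 5 called genes with the largest called difference from Co in each direction. Sox9, Nfatc1, Foxc1, Krt14, Krt15, Aldh3a1, Oas1f, Tnf, S100a8, S100a9, Lcn2, Ereg, Itga6, Fcer1g and members named without values were added with their values in view. The members and the lists were chosen with earlier results of these data known. Alternatives were other forms of the mouse block, a pseudocount of 0.1, no filter, no trend, rescaled libraries, a fold limit of 1, zeros as missing, and each mouse left out. Promoters came from RefSeq (GRCm38.p6). Some genes are not reported here.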

Additional observations from a re-analysis of the deposited data

Results flagged for a closer look

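Each value here was noted because the test of the difference between 2 comparisons passed (limma, adjusted p below 0.01), and each is the HF-SC minus b-KC difference in GFP minus that in Co or Tom on the log2(FPKM + 1) scale. Against Co, the mediators and matrix genes with positive values, nearer to HF-SC in GFP, were Mmp3 5.77, Mmp13 5.69, Mmp9 4.11, Timp3 1.93, Tslp 2.97, Ptgs2 2.43, Ereg 2.34, Il1a 2.33, Ccl20 1.99, Tnf 1.39 and Itga6 1.13. Among epidermal and upper follicle genes they were Acoxl 3.22, Krt77 2.90, Krt1 2.79, Krt79 2.40, Krt10 2.20, Ovol1 2.08, Tgm3 1.97, Ly6d 1.93, Krtdap 1.62, Fosl1 1.5, Defb6 1.44 and Oas1f 1.42, and among cell cycle genes Ube2c 1.81, Cdc20 1.67, Birc5 1.58, Cdk1 1.24 and Cdkn2c 1.07.

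Negative values against Co were those of the bulge genes Cd34 −1.93, Il31ra −1.94 and Grem1 −2.79, of Lrg1 −4.05 and Lgals1 −2.26, and of the endothelial genes Fabp4 −3.64, Sele −2.88, Ackr1 −2.75, Plvap −2.64, Selp −2.47 and Pecam1 −1.99. Against Tom, the negative values were Sele −6.56, Ackr1 −6.43, Selp −6.28, Fabp4 −6.09, Plvap −5.63, Lrg1 −5.45, Pecam1 −5.37, Csf3 −2.67, Fstl1 −2.66, Timp2 −1.49 and Gsta3 −1.16. No explanation for these differences was tested.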

How the results depend on the processing

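Of the genes called higher in HF-SC GFP, 145 became 492 with a pseudocount of 0.1 and 796 with a fold limit of 1, and 135 to 160 without 1 mouse. The 15 called higher in b-KC GFP became 32 and 717 under those settings, 8 without the filter on low values, 5 after rescaling and 5 to 21 without 1 mouse (5 without mouse 815, 9 without mouse 817). Genes that passed numbered 622 to 2380 and 358 to 2859 without 1 mouse, lowest without mouse 815. Identity genes called in GFP became 406 of 838 and 11 of 653 with the pseudocount of 0.1, and 574 of 1309 and 281 of 1382 with the fold limit of 1. On the b-KC side the count was 0 after rescaling, 2 to 8 without 1 mouse and 4 to 7 without 1 control mouse.

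Differences from Co were called higher for 122 genes and lower for 45. These counts were 288 and 102 with the pseudocount of 0.1, 658 and 297 with the fold limit of 1, 44 to 189 and 27 to 65 without 1 mouse, and 75 to 135 and 31 to 45 without 1 control mouse. The 122 became 62 without the filter and 77 without the replicate block. Other counts over all genes changed by less than 1.5 times without the block. Differences from Tom, 0 higher and 224 lower, became 4 and 370 with the fold limit of 1 and 0 to 21 and 82 to 364 without 1 mouse, and the 224 became 116 without the filter.

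Of the named genes, those that changed sign were Fa2h (−0.23 with the pseudocount of 0.1; −0.58 to 0.81 without 1 mouse), Elovl3 (−0.73 to 0.54), Acoxl (−0.84 to 0.02), Lrg1 (−0.93 to 0.68) and Krt14 (−0.68 to 5.74, and −0.69 with zeros as missing). Genes that passed and did so no longer without the filter, beside those named above, were Itga6 (adjusted p = 0.0267), Rps27 (0.0171), Npm3 (0.0142), Rab5c (0.0283), Spink5 (0.0142), Ccl3 (0.0113), Cdkn1a (0.0151), Fosl1 (0.0128), Plvap (0.0257), Selp (0.0412), Pecam1 (0.0157), Col3a1 (0.0219), Col1a1 (0.0167), Lum (0.0366), Lyz2 (0.02), Cd74 (0.0148) and Tyrp1 (0.0451). Without the block Spink5 did not pass (0.0116), with the mouse as a random block Fosl1 (0.0165) and Itga6 (0.0282) did not, and with only the compared libraries in the fit Plvap (0.0139) and Selp (0.0128) did not. All these are limma p-values adjusted over all genes. Over all settings, 1111 values of named genes kept their direction and side of the threshold, 122 fell below it, 13 rose above it and 8 changed sign. The causes were not tested. FPKM without read counts limits the precision for genes near the detection floor.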
